A study of Mus musculus with 6 samples.

Results

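This account concerns 9 genes of the tight, gap and adherens junctions of liver epithelium: Cldn1, Cldn2, Cldn3, Ocln, Tjp1, F11r, Gjb1, Gjb2 and Cdh1. They were taken by gene symbol from the array's annotation and are represented by 16 of the 11811 probe sets in the deposited table, and they are 9 of the 7163 genes that the table names by a single symbol. The samples are 6 total RNA preparations of whole mouse liver, each hybridised to 1 Affymetrix array. Of these, 3 (KO903, KO904 and KO905) are labelled as liver of an Atp7b knockout, a line that lacks the copper-exporting ATPase whose loss causes Wilson disease, and 3 (WT4, WT5 and WT6) as wild-type liver. The labels trace the knockout to an earlier description and name no treatment, and sex, age, strain and diet were not given in the sources used here; the series title places the animals early in copper accumulation. The genes were chosen by their function with the knockout and wild-type signals of these same 6 arrays already known, so their differences are given as a description, without p-values; where a probe set is said to pass or miss the threshold of the whole table, that is a label and no evidence of a difference.

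Hepatocytes are polarised cells that join their neighbours around the bile canaliculus. Tight junctions seal that channel from the blood side: claudins and occludin are the strand proteins in the membrane, JAM-A (F11r) is an adhesion molecule beside them, and ZO-1 (Tjp1) is the scaffold beneath that ties them to actin. Gap junctions, made in hepatocytes of the connexins Cx32 (Gjb1) and Cx26 (Gjb2), pass ions and small metabolites from cell to cell, and E-cadherin (Cdh1) is the adhesion receptor of the adherens junction.

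Upstream sequence is shown for the 3 genes whose signals differed enough to pass the threshold used for the whole table, so that their start regions can be set side by side. RefSeq sequence (assembly GRCm38.p6) was at hand for 8 of the 9 genes, all but Cdh1, at 12 annotated starts. The 250 bases before the start are given 5′ to 3′ on the gene's strand for Cldn1 (chr16:26371840-26372089, minus strand), for the more upstream of the 2 starts of Ocln (chr13:100552719-100552968, minus strand) and for Gjb2 (chr14:57104703-57104952, minus strand). Capitals mark GC boxes, the letters GGGCGG or their complement CCGCCC.
Cldn1: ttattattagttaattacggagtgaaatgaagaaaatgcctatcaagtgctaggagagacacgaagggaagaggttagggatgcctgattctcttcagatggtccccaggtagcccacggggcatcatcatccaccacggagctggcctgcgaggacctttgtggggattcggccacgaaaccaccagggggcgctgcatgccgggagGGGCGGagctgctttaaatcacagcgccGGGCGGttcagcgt
Ocln: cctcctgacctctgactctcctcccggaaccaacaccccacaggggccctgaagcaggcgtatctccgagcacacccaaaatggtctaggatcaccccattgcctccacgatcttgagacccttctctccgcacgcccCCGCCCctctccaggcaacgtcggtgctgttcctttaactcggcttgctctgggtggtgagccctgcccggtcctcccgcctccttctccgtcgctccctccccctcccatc
Gjb2: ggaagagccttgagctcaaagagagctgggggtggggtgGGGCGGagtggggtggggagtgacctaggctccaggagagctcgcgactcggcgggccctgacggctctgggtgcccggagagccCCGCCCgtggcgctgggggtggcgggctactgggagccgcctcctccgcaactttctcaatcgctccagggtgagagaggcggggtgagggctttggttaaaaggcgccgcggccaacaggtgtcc
The Cldn1 sequence holds GC boxes from 42 to 37 and from 14 to 9 bases before the start, that of Ocln holds 1 from 112 to 107, and that of Gjb2 holds 2, from 211 to 206 and from 126 to 121. A GC box was found before 8 of the 12 starts, which belong to 7 of the 8 genes, and in 32.7% of 32851 mouse upstream regions of the same length. The metal response element core (TGCACNC or TGCGCNC on either strand), the kind of site found before metallothionein genes, has no match in the 3 printed sequences. It matched before starts of Cldn2, Gjb1 and Ocln, in Ocln at its other start, and 21.4% of all upstream regions hold it. The antioxidant response element core (TGACNNNGC, either strand; 10.2% of all regions) matched before 1 of the 4 starts of Gjb1 and at none of the other 7 genes. The E-box read by Snail-type repressors (CAGGTG, either strand, 17.2% of all regions) lies in the Gjb2 sequence from 9 to 4 bases before the start. It also lies before starts of Ocln, Gjb1 and F11r, in Ocln only at the start that is not printed. Near the fourth start of Gjb1 that E-box and a metal response element core share 1 base. Of the other motifs searched, the AP-1 site (TGANTCA; 6.75% of all regions) matched at F11r, the TATA box (TATAAA; 12.4%) at Cldn2 and Gjb1, and the HNF1 core (GTTAAT; 6.43%) at Cldn1 and Gjb1. The letters matched say nothing on binding in these livers.

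The targeted gene was read by 1 probe set. Atp7b signals were 240.5, 232 and 185 in KO903, KO904 and KO905 and 259, 299.7 and 241 in WT4, WT5 and WT6, a log2 difference of -0.27 ± 0.16 (SE) that did not pass (limma adjusted p = 0.407). Its position with respect to the disruption was not looked up, so it is no check of the genotype labels. Array medians lay between 330.8 and 342.8, and the ratio of 3′ to 5′ actin signal was 1.17 to 1.22 in the knockout and 1.1 to 1.47 in wild type. The ratio of 1.47 was that of WT6, which also had the highest such ratio for Gapdh, 0.99. Whether this bears on the signals of WT6 was not tested. Of 14 listed hepatocyte markers 13 were tested, and their summed signal was 213884.5 to 246794.2 in the knockout arrays and 223577.7 to 277322.5 in wild type, and the defining transcripts of the labelled tissue were thus abundant in all 6. In bulk liver, fewer cells of a type and less RNA per cell cannot be told apart.

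In the knockout livers, 2 strand proteins of the tight junction, Cldn1 and Ocln, stood above wild type on every tested probe set, the hepatocyte connexin Gjb2 stood below it, and the scaffold Tjp1, Cldn2 on its brighter probe set and the other connexin Gjb1 lay close to it. Differences are in log2(signal + 16), knockout minus wild type, which understates the change of low signals, and intervals are 95% intervals of limma. Of the 16 probe sets, 15 had a mean signal of at least 100 and entered the fit. The remaining one, a further probe set of Cldn1, gave 20.3 to 32.5 in the knockout and 30.2 to 58.9 in wild type and was left out. Among the 15, 4 passed an adjusted p of 0.05 over the whole table, where 4.14% of 10620 probe sets did. They were 3 higher ones (2.05% of all) and 1 lower one (2.09% of all). The 3 knockout values lay wholly above or below the 3 wild-type values in 7 of the 15, against 23.6% of all: 6 lay above (13.2% of all) and 1, Gjb2, below (10.4% of all). Counted by gene on the brightest probe set, 2 of 9 passed as higher (2.14% of 6604 genes) and 1 as lower (1.8%), and 5 of 9 had groups free of overlap (24.1% of genes), 4 above (14.0%) and 1 below (10.1%). Because this contrast was known when the genes were picked, nothing is read from these shares.

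**Figure D1:**
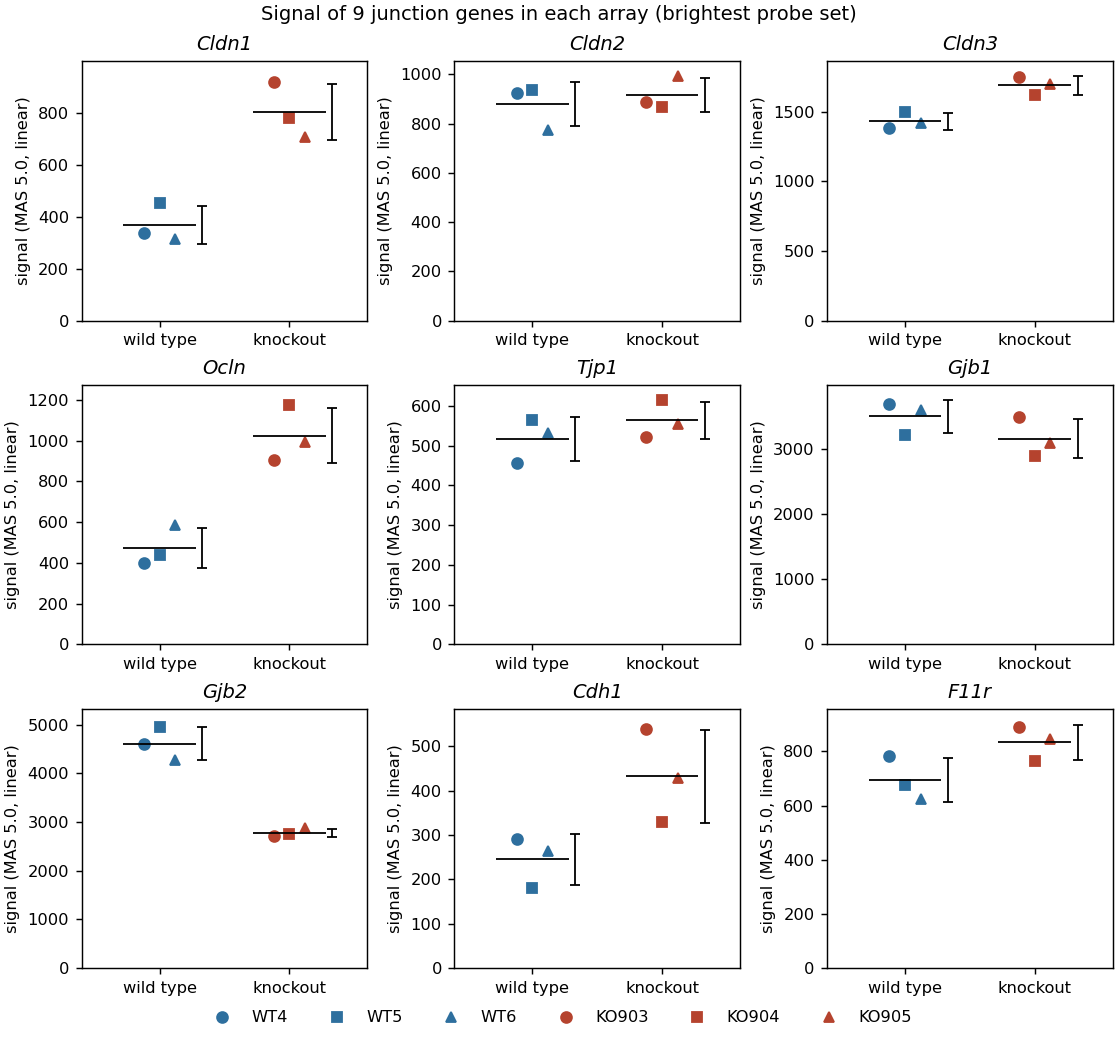
Signal of each junction gene on its brightest probe set (y axis, MAS 5.0 signal on a linear scale from 0) in the 3 wild-type (blue) and 3 knockout (red) arrays; each symbol is 1 array, the horizontal line is the group mean and the bar beside it is 1 SD. Cldn1 and Ocln lie higher in every knockout array than in any wild-type array, Gjb2 lies lower, and Cldn2, Tjp1 and Gjb1 overlap.

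Cldn1 encodes claudin-1, a barrier-forming claudin whose loss opens the tight junction. Its brightest probe set read 919.9, 781 and 707 in KO903, KO904 and KO905 and 339, 451 and 313 in WT4, WT5 and WT6. Every knockout value was above every wild-type value, and the lowest knockout array still exceeded WT5, the highest of wild type, by 707 to 451. The means were 803 ± 108 (SD, n = 3) and 368 ± 73.7 (SD, n = 3), a log2 difference of 1.10 ± 0.16 (SE), or 2.15-fold. The other tested probe set of Cldn1 read 993, 616 and 650.3 in the knockout and 236, 277 and 215 in wild type. It gave a wider gap, 753 ± 208 against 243 ± 31.9 (SD, n = 3 each), a log2 difference of 1.55 ± 0.18 (SE), or 2.92-fold. KO903 was the highest array on both probe sets, while KO904 and KO905 changed places between them.

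Ocln encodes occludin, a strand protein of the tight junction that is not a claudin. It was read by 1 probe set, at 906, 1174 and 995 in KO903, KO904 and KO905 and at 398, 438 and 586 in WT4, WT5 and WT6. The groups did not overlap, and here KO904 was the highest array and WT6 the highest of wild type, neither of which led for Cldn1. The means were 1025 ± 136 and 474 ± 98.9 (SD, n = 3 each), a log2 difference of 1.10 ± 0.16 (SE), or 2.14-fold.

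The other claudins moved little beside these. Cldn2 encodes claudin-2, which forms a pore for cations and water, and was read by 2 probe sets. The brighter gave 887, 867 and 993 in the knockout and 926, 939 and 775 in wild type, with overlapping groups and a log2 difference of 0.06 ± 0.12 (SE; interval -0.21 to 0.33). The dimmer gave 674, 599.9 and 611 against 455, 623 and 323, and its difference of 0.46 ± 0.20 (SE; interval 0.03 to 0.90) rested on which wild-type array was kept: it was 0.69 without WT5, where it passed the threshold, and 0.23 without WT6. WT6 was the lowest array on both probe sets.

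Cldn3, a sealing claudin of hepatocytes and bile duct cells, had 4 probe sets, all with a positive difference. The brightest read 1752, 1620.4 and 1697 in KO903, KO904 and KO905 and 1382, 1499.8 and 1417 in WT4, WT5 and WT6. The groups did not overlap, and the log2 difference was 0.24 ± 0.10 (SE; interval 0.01 to 0.46), or 1.18-fold. The other 3 gave 0.33, 0.20 and 0.27, and 1 of these, at 1036 to 1201 against 821 to 999, was also free of overlap. None of the 4 passed the threshold. Of the 4 probe sets, 2 carry the Affymetrix suffix for probes that can match other transcripts, so the 4 readings are not independent of one another or of related genes.

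**Figure D2:**
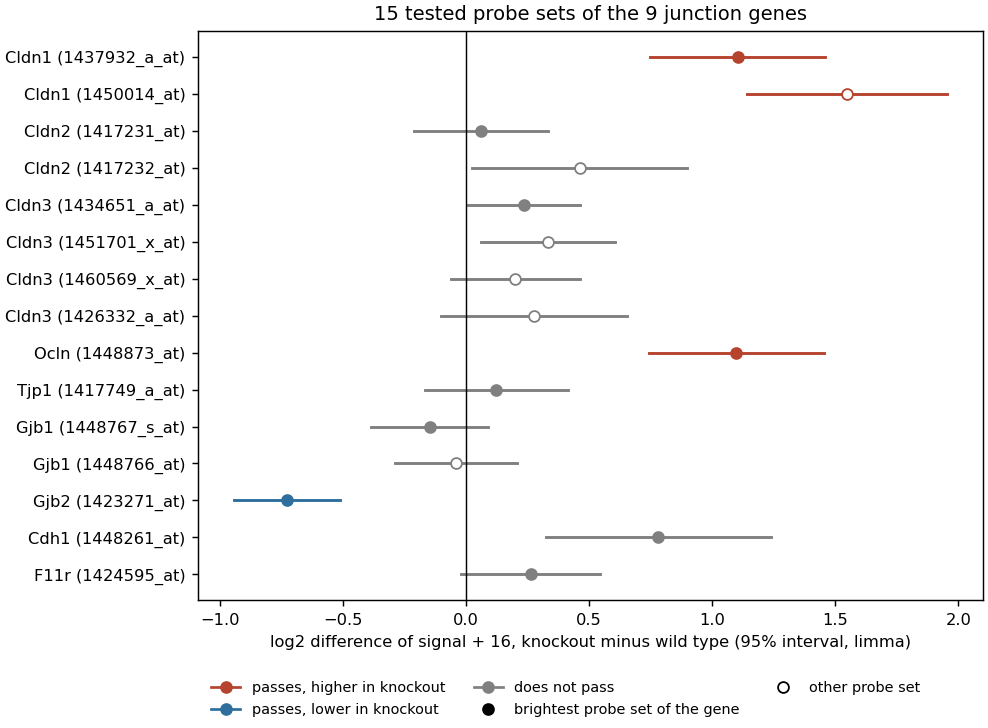
Log2 difference of signal + 16, knockout minus wild type (x axis), for the 15 tested probe sets of the 9 genes (y axis, with the probe set name), with 95% intervals from limma; filled points are the brightest probe set of a gene, red and blue those that passed an adjusted p of 0.05 as higher or lower. Both Cldn1 probe sets and Ocln lie to the right at 1.10 to 1.55, Gjb2 lies to the left at -0.73, and the rest lie between -0.15 and 0.78.

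The scaffold and the adhesion molecule of the tight junction differed little or not at all beyond their spread. Tjp1, which encodes ZO-1, read 522, 614 and 556 in the knockout and 457, 564 and 533 in wild type, with a log2 difference of 0.12 ± 0.13 (SE; interval -0.17 to 0.41). Its groups overlapped. F11r, which encodes JAM-A, read 891, 765 and 847 against 782, 677 and 625. Only WT4 reached into the range of the knockout, above KO904, and the log2 difference was 0.26 ± 0.13 (SE; interval -0.02 to 0.54).

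The connexins of the hepatocyte gap junction differed from each other. Gjb2, which encodes Cx26, read 2705, 2746 and 2869 in KO903, KO904 and KO905 and 4591, 4959 and 4279.8 in WT4, WT5 and WT6. The knockout arrays lay close together, and all were far below WT6, the lowest of wild type. The means were 2773 ± 85.6 and 4609.9 ± 339.9 (SD, n = 3 each), a log2 difference of -0.73 ± 0.10 (SE), or 1.66-fold lower. Gjb1, which encodes Cx32, read 3494, 2904 and 3099.6 against 3699, 3223 and 3598 on its brighter probe set, with overlapping groups and a log2 difference of -0.15 ± 0.11 (SE; interval -0.39 to 0.09). Its other probe set gave -0.04 ± 0.11 (SE, interval -0.29 to 0.21), a sign that turned to 0.04 without WT4. The brighter Gjb1 probe set, which the ratio below uses, carries an Affymetrix suffix for probes shared between transcripts. Within each array the log2 ratio of Gjb2 to Gjb1 was 0.25 to 0.62 in wild type and -0.37 to -0.08 in the knockout, a shift of -0.58 in the group means.

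For the tight junction genes the shift of the within-array log2 ratio was 1.04 for Cldn1 over Cldn2, 0.87 for Cldn1 over Cldn3 and 0.98 for Ocln over Tjp1. Each shift is the difference between values already given for the genes of the pair, and the pairs were formed with those values known, so the ratios show how each array contributed and are no further evidence. The level of 1 probe set cannot be set against that of another.

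**Figure D3:**
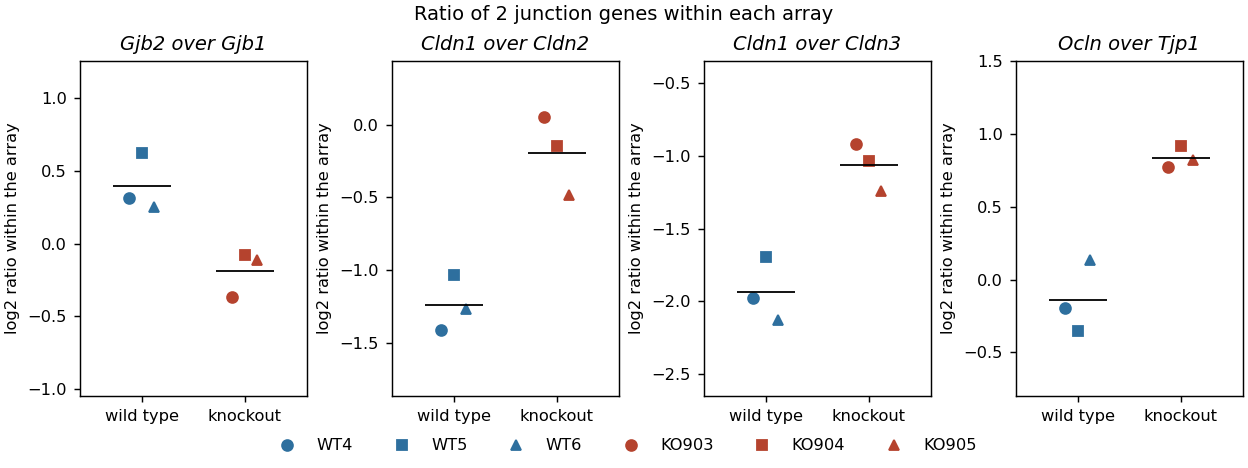
Log2 ratio of 2 junction genes within each array (y axis; signal + 16, brightest probe sets), in the 3 wild-type (blue) and 3 knockout (red) arrays, with the group mean as a line; every panel spans the same range of log2 units. Gjb2 over Gjb1 has a mean of 0.39 in wild type and -0.19 in the knockout, and Ocln over Tjp1 has means of -0.14 and 0.84.

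Cdh1 encodes E-cadherin, which in the mouse lobule is richest in periportal hepatocytes and is also carried by bile duct cells. Its signals were 539.5, 330.5 and 428 in KO903, KO904 and KO905 and 291, 181 and 263 in WT4, WT5 and WT6. The groups did not overlap, but the gap between KO904 and WT4 was small beside the spread within each group. The means were 433 ± 105 and 245 ± 57.3 (SD, n = 3 each), a log2 difference of 0.78 ± 0.21 (SE), or 1.72-fold, that did not pass the threshold. Leaving out 1 array moved it between 0.59 (without WT5) and 0.95 (without KO904). KO903 was the highest array for Cdh1.

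The profiles over the 6 arrays were compared with those of 6595 other genes for the members with the largest differences, Cldn1 and Ocln. The measure was the root mean square distance between log2 profiles centred on their mean. Nearest to Cldn1 were Pla2g6, a phospholipase gene, Dsn1, a kinetochore gene, and Alas2, the erythroid enzyme of heme synthesis, at distances of 0.14, 0.14 and 0.14. Nearest to Ocln were Mt1, a metallothionein gene, at 0.13, Aox1, an aldehyde oxidase gene, at 0.14, and Slc22a29, an organic ion transporter gene, at 0.15. Mt1 had a mean signal of 11968 in wild type and 26289.6 in the knockout. The distances describe likeness between groups of 3 and nothing more.

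Other junction genes were examined through 7 lists of 151 genes besides these 9. Of the 151, 68 were tested and the rest were not. None of the 68 passed limma's threshold on the brightest probe set (8 at an unadjusted p under 0.05), where 3.94% of 6604 genes did. Their median log2 difference was 0.05, beside 0.03 for all genes tested. The share of all genes at an unadjusted p under 0.05 was not tabulated. Nothing is therefore read from the counts at that cut, here or in the lists below. Coverage was thin for connexins and pannexins (1 of 20 listed) and for other claudins and strand proteins (5 of 23). Among other claudins and strand proteins, 0 of 5 passed (1 at an unadjusted p under 0.05; median 0.07). Marveld2, which encodes tricellulin, the strand protein of tricellular contacts, read 172, 211 and 139 in the knockout and 103, 65.8 and 130.4 in wild type. The groups did not overlap, and the log2 difference of 0.73 ± 0.23 (SE) had a limma adjusted p of 0.115. Cldn5, the endothelial claudin, gave 0.39 ± 0.24 (SE; adjusted p = 0.442 in limma) with overlapping groups.

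Of 14 plaque proteins and junctional adhesion molecules 0 passed (1 at an unadjusted p under 0.05; median 0.09). Ybx3, a ZO-1-associated Y-box factor, had a log2 difference of -0.33 ± 0.14 (SE, limma adjusted p = 0.248). Cxadr, an adhesion molecule of the tight junction, had one of 0.36 ± 0.17 (SE, limma adjusted p = 0.309). The dimmer probe sets of Cxadr gave 0.33 and -0.07, with overlapping groups. Gja1, the connexin Cx43 of non-parenchymal liver cells, was the only other connexin tested, at signals of 91.2 to 99.1 against 109 to 122 (log2 -0.25 ± 0.16, SE; limma adjusted p = 0.477). Among 10 cadherins, catenins and nectins 0 passed (0 at an unadjusted p under 0.05; median 0.02). Ctnnb1, the β-catenin that binds the tail of E-cadherin, had mean signals of 3017 ± 311 (knockout) and 3322 ± 213 (wild type, SD, n = 3 each). Its log2 difference was -0.14 ± 0.11 (SE, limma adjusted p = 0.559), and its dimmer probe sets gave 0.10 and 0.02. The nectin-like gene Pvr gave 0.46 ± 0.25 (SE, limma adjusted p = 0.374).

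Desmosome genes gave 0 of 9 (1 at an unadjusted p under 0.05; median 0.03), with Pkp2, a plakophilin gene, at 672 to 729.7 in the knockout and 513 to 589 in wild type (log2 0.33 ± 0.12; limma adjusted p = 0.172). Dsc3, a desmosomal cadherin gene, gave -0.41 ± 0.22 (adjusted p = 0.368 in limma). The actin belt and its regulators gave 0 of 21 (4 at an unadjusted p under 0.05; median 0.10). Cdc42, a GTPase of cell polarity, gave 0.45 ± 0.14 (SE, limma adjusted p = 0.105) and passed only without WT4, at 0.61. Its dimmer probe sets gave 0.14 and 0.08, with overlapping groups. Lima1, an actin-bundling protein gene, gave -0.40 ± 0.13 (SE; limma adjusted p = 0.112).

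Transcription factors of epithelial and junction genes gave 0 of 8 as well (1 at an unadjusted p under 0.05), with a median of -0.09. Cebpa, a hepatocyte factor, read 4332, 4365 and 3721 in the knockout and 5260.3, 5807 and 5313 in wild type. Its groups did not overlap, and the log2 difference of -0.40 ± 0.10 (SE) fell just short of the threshold (limma adjusted p = 0.0539). Hnf4a, the factor that drives the epithelial programme of hepatocytes, read 2909 to 2982 against 3224 to 3664 (log2 -0.21 ± 0.10, SE, limma adjusted p = 0.282). Its dimmer probe sets gave -0.38, -0.07 and 0.02, with overlapping groups.

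**Figure D4:**
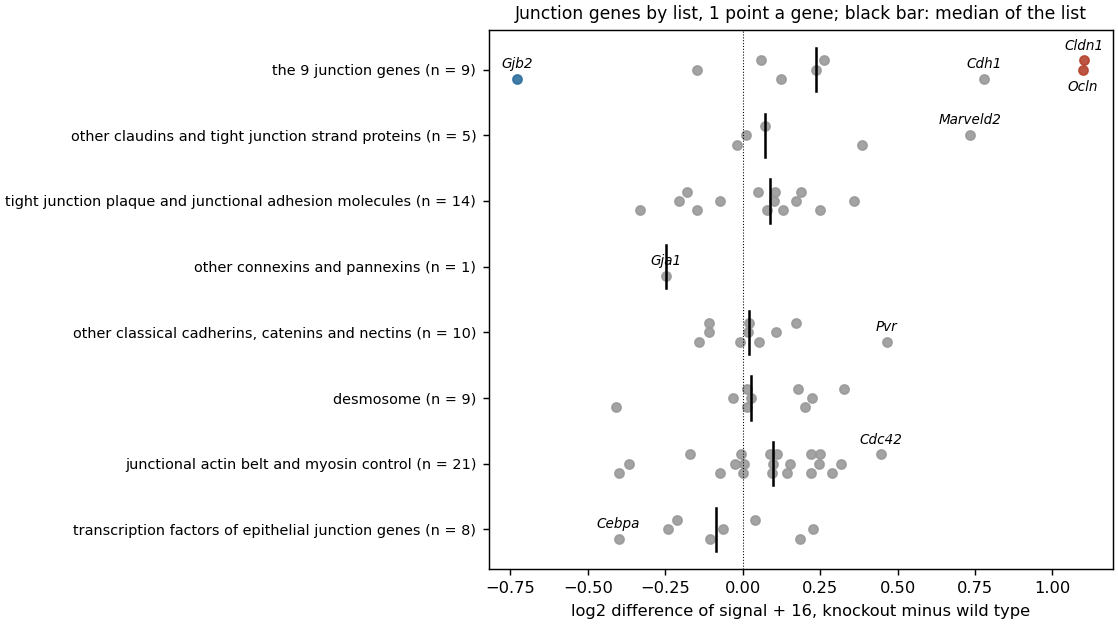
Log2 difference of signal + 16, knockout minus wild type (x axis), 1 point a gene on its brightest probe set, for the 9 junction genes and 7 further lists (y axis, with the number of genes tested); red and blue mark genes that passed an adjusted p of 0.05 as higher or lower, and the black bar is the median of the list. No gene outside the top line passed, and the medians of the further lists run from -0.25 to 0.10.

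Gjb2 and Cdh1 are periportal genes of the lobule, so other zonated genes were read beside them. Of 19 tested, 3 passed (15.8%), where 3.94% of 6604 genes did. The lists were chosen with earlier results of these data known, so nothing is read from that share. Of 12 pericentral genes, Glul, the glutamine synthetase of the last hepatocytes before the central vein, fell from 3815 ± 152 to 2893 ± 71.2 (SD, n = 3 each; log2 -0.40 ± 0.09, limma adjusted p = 0.04), and 11 did not pass. The other tested probe set of Glul had overlapping groups and a log2 difference of -0.13 ± 0.12 (SE; limma adjusted p = 0.63), and Glul did not pass on the mean over both. Slc1a2, a pericentral glutamate transporter gene, gave 0.50 ± 0.15 (SE; limma adjusted p = 0.0964). Of 7 periportal genes besides Gjb2 and Cdh1, the P450 Cyp2f2 was lower, with 9079 ± 128 (knockout) against 11771 ± 521 (wild type; SD, n = 3 each; log2 -0.37 ± 0.08, limma adjusted p = 0.0332). Hal, the histidine-degrading enzyme, rose from 2671 ± 322 to 3950.4 ± 512 (SD, n = 3 each; log2 0.56 ± 0.13, limma adjusted p = 0.0338). Of the 3, Hal passed without WT5 (0.59) and without WT6 (0.63) and in no other leave-one-out fit, and Glul and Cyp2f2 passed in none. Of the 7 periportal genes 2 had a log2 difference above 0 (median -0.08), and of the 12 pericentral genes 8 did (median 0.11). The median of all genes tested was 0.03. Gjb2 was lower, and Cdh1 was higher without passing. Whether position in the lobule bears on the values of Gjb2 and Cdh1 was not tested.

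Markers of other liver cells were read because bile duct and endothelial cells also carry claudins and cadherins. Of 17 markers of bile duct and progenitor cells 2 were tested, and the keratin genes Krt19 and Krt7 and Epcam were not analysed here. Prom1, a progenitor and duct surface marker, rose, at 564, 372 and 622 in the knockout and 242, 198 and 237 in wild type (log2 1.12 ± 0.19, SE; limma adjusted p = 0.00828). Aqp1, a water channel of duct and endothelial cells, gave 0.27 ± 0.11 (SE; limma adjusted p = 0.234), and the summed signal of both was 1413 to 1808 in the knockout and 1124 to 1174 in wild type. Sox4 and Cd24a, also on that list, had mean signals under 100. The part of duct cells in the values of Cldn1, Cldn3, Ocln and Cdh1 was not tested.

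Among 11 tested endothelial markers 0 passed on the brightest probe set (5 at an unadjusted p under 0.05), and their sum was 4976 to 6361 against 4084 to 4791. Fcgr2b, of sinusoidal endothelium, gave 0.61 ± 0.16 (SE; limma adjusted p = 0.0566) and the lectin gene Clec4g 0.32 ± 0.12 (adjusted p = 0.17). All 9 tested Kupffer cell markers had a log2 difference above 0 and 0 of them passed in limma (4 at an unadjusted p under 0.05). Their sum was 6142 to 8248 against 4446 to 6239. Differences above 0 were also found for 9 of 11 endothelial, 3 of 6 stellate cell and 3 of 13 hepatocyte markers. The share of all genes above 0 was not tabulated, and their median was 0.03. Lyz2, lysozyme, gave 0.73 ± 0.20 (SE; limma adjusted p = 0.0674) and Cd5l, a Kupffer cell protein gene, 0.72 ± 0.24 (adjusted p = 0.128). Stellate cell markers summed to 5944 to 7025 against 5239 to 7167, with 0 of 6 passing in limma (0 at an unadjusted p under 0.05); Col3a1 gave -0.46 ± 0.24 (SE; adjusted p = 0.35) and Dcn 0.21 ± 0.12 (adjusted p = 0.402). Ms4a1 and Ptprc, of lymphocytes, gave 0.40 ± 0.18 (adjusted p = 0.278) and 0.23 ± 0.16 (adjusted p = 0.5), and summed to 311.5 to 332 against 233 to 295. Alas2, the only red cell marker tested, rose from 398 ± 20.3 to 814 ± 91.8 (SD, n = 3 each; log2 0.999 ± 0.13, limma adjusted p = 0.00183). On the hepatocyte side Tat, a tyrosine-degrading enzyme, gave -0.42 ± 0.12 (limma adjusted p = 0.0803) and Cps1, of the urea cycle, -0.18 ± 0.10 (adjusted p = 0.396), with 0 of 13 passing (1 at an unadjusted p under 0.05). The part of these cell types in the junction values was not tested.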

How the data were processed

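The labels' protocols name TRIzol extraction with a column clean-up and an Enzo labelling kit. Per the labels, each scan was processed by the authors with MAS 5.0, which gives 1 linear intensity per probe set; the deposited intensity values had been scaled per array to a target of 350. The submitters' processing notes list MAS5. No detection calls were used, and the number of arrays, 3 per group, limits the precision.

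Groups came from the sample titles. The labels do not say whether the samples came from separate animals; if they did not, the p-values cover technical spread only. Control probe sets (33) and the 1158 with a mean signal under 100 were left out. The other 10620 were fitted with limma 3.58.1 in R 4.3.3 on log2(signal + 16), with an intensity trend, two-sided, and Benjamini-Hochberg adjustment over all of them (threshold 0.05). An exact permutation test of 3 against 3 cannot go below 0.1. Each gene with several tested probe sets was represented by the brightest. A single gene symbol was annotated for 10776 probe sets, several for 418 and none for 584, and genes were named only from the first kind.

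The members and lists were chosen with earlier results of these data known. Named were all members, Atp7b, up to 4 called genes of each list (the 2 with the smallest p where fewer than 2 were called), and the 3 genes nearest to each of 2 members. On simulated arrays of 10620 probe sets with 200 changed (20 runs), limma recovered 15.4%, 72.5% and 97.4% of changes of 0.5, 1 and 2 on the log2 scale, and 5.15% of calls were unchanged probe sets. Motifs were searched on both strands of RefSeq upstream regions of 250 bases (GRCm38.p6). Alternatives were quantile normalization, median centring, pseudocounts of 1 and 64, no signal filter or a minimum of 200, eBayes without trend or robust, array weights, the mean over probe sets, a threshold of 0.10, and leaving out each sample. Figures were drawn with matplotlib 3.10.9.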

Additional observations from a re-analysis of the deposited data

How the results depend on the processing

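For each of the 9 genes the log2 difference of the brightest probe set was recomputed under 16 alternatives: 143 of 144 values kept their direction and their side of the threshold, and the exception was Cldn2, whose difference ran from -0.0283 (without WT6) to 0.11 (without WT5) with 1 sample left out and reached 0.26 on the mean over its probe sets. The count of member probe sets called was 4 or 5 throughout. It was 5 at a threshold of 0.10, where Cdh1 also passed, and without WT5, where the dimmer Cldn2 probe set also passed. The genes were chosen with these values known, and every refit reuses the same arrays. Neither the values that kept their side nor the steady count is therefore evidence of a difference. The count over all probe sets was 786 at a threshold of 0.10 and 175 to 469 with 1 sample left out, against 440. Among the other junction genes the count of 0 became 1 (Cebpa, lower) at a threshold of 0.10, with array weights, with arrays centred on their median, with the mean over probe sets, at a minimum signal of 200 and with robust eBayes. With 1 sample left out it was 0 to 1 (Cdc42 without WT4, Foxa3 without WT5). The zonation count of 3 became 0 without an intensity trend and 0 to 1 with 1 sample left out, and the cause was not tested. Without WT4 the 1 call was none of the 3 but the pericentral gene Cyp2c29, higher at 0.74. With all samples Cyp2c29 gave 0.49 ± 0.19 (SE) with overlapping groups and did not pass. No paired analysis was possible because the groups share no sample numbers. Differences near 0.5 on the log2 scale were often missed in simulation, where 200 of 10620 probe sets were changed. The number changed in these arrays is not known, so the simulated share need not hold for them. A junction gene that did not pass is not shown to be equal between the groups.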

Other observations

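Some genes of the lists had a dimmer probe set that stood further apart than the brightest one; these were picked after their values were seen. Nectin3, an adhesion receptor of the adherens junction, read 103, 122.5 and 79.9 in the knockout and 168, 153 and 164 in wild type on 1 probe set (log2 -0.61 ± 0.18, SE, limma adjusted p = 0.0906). Its brightest probe set gave -0.11 ± 0.13 (SE) and its remaining one -0.09, both with overlapping groups. Rock1, a kinase that contracts the actin belt, read 478.5, 396 and 446 against 612, 561.5 and 672 on 1 probe set (log2 -0.47 ± 0.13, SE, limma adjusted p = 0.0756). Its brightest probe set gave 0.00 ± 0.13 (SE) and its remaining one 0.16, both with overlapping groups. Fcgr2b, the endothelial Fc receptor gene, passed as higher on 1 of its 4 probe sets (log2 0.82 ± 0.17, SE; limma adjusted p = 0.0228), and the others gave 0.61, 0.47 and -0.01. Crb3, a polarity protein gene of the apical membrane, had positive differences on all 3 of its probe sets, at 0.33, 0.29 and 0.17, none of which passed in limma.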
